A study of Mus musculus with 28 samples.

Results

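PiRNA clusters, the genomic loci whose transcripts are cut into PIWI-interacting RNAs, were followed one by one in small RNA from mouse sperm. Every row that the 3 deposited count tables mark as a piRNA cluster was taken, which gave 398 cluster names in all. The wild type (WT) table held 348 of them, 338 were in the Nrf2-/- table, and 337 in that of floxed and liver knockout mice, beside 1370954, 541273 and 408592 rows of every class in those tables, and 283 names were in all 3. For each cluster the share of its library's piRNA cluster counts was computed, as a percentage.

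The 28 sperm libraries formed 8 groups. The WT table held 4 control libraries from mice that had no alcohol, and libraries from mice exposed to alcohol at doses labelled low (4 libraries), medium (2) and high (2), whose amounts are not given in the sources used here. The Nrf2-/- table held 4 ethanol libraries and 4 libraries of unexposed controls, all from mice lacking Nrf2, the transcription factor encoded by Nfe2l2 that drives antioxidant genes. The last table held 4 libraries from mice that carried floxed Nrf2 together with Albumin-Cre, whose promoter drives Cre in hepatocytes (Nrf2 liver KO), and 4 from mice with floxed Nrf2 as their controls (Nrf2 flox). In the last set the deletion is thus in the liver and the RNA is from sperm. Ages, strains, the amount of alcohol and whether animals were pooled were not given, so the p-values measure only the spread between these libraries, which may be technical.

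In the mouse testis, pachytene piRNAs are made in meiotic and post-meiotic germ cells from long precursor transcripts that the transcription factor A-MYB (gene Mybl1) switches on. They are loaded into the PIWI proteins MIWI (Piwil1) and MILI (Piwil2), and cleave or destabilise target transcripts. A cluster name gives a chromosome, a cytogenetic band, an identifier and a transcript number (17-qA3.3-27363.1), while clusters inside a gene carry the prefix pi- and that gene's symbol (pi-Cbl.1). Several pachytene loci lie as head-to-head pairs that share 1 promoter region. The pairs 17-qA3.3-27363 with 17-qA3.3-26735, 9-qC-31469 with 9-qC-10667 and 6-qF3-28913 with 6-qF3-8009 are known examples, and the 6-qF3 and 18-qE1 loci are known to be needed for normal male fertility in mice.

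The 398 names came from 192 name stems, of which 96 stems with 201 rows were named by a band on 18 chromosomes and 96 stems with 197 rows were named by a gene. Rows of 1 stem are transcripts of the same locus and share reads. Of the 204 WT rows with a mean of at least 10 counts, 58 had the same count as another row of their stem in every library, and so had 53 of 189 rows in the Nrf2-/- table and 51 of 188 in the flox and liver KO table. How reads on overlapping rows were assigned is not given in the sources used here, and concentration is therefore also given with 1 row per stem.

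The class itself was summed over all its rows, also those of 1 stem that share reads. It took 9.95% to 37.9% of all counts in the WT libraries and 9.17% to 25.7% in the Nrf2-/- libraries. In the flox and liver KO libraries it took 20.5% to 28.7%. It held between 410679 and 3243374 counts per library, from total counts of 1993933 to 11119711, so a row with no read had a share of at most 0.001% (3 counts of the class, counting error only). All 13 sperm and spermatid marker transcripts were above 0 in every library, with a summed exon level of 204 to 1105 CPM (counts scaled to a common library total). WT control 1 stood apart, with 75.8% structural RNA against 22.5% to 31.8% in the other WT libraries, and Nrf2-/- controls 1 and 2 had summed epididymis epithelium markers of 1998 and 1729 CPM against 62.0 and 42.0 CPM in controls 3 and 4. Exon reads of Nfe2l2, the targeted gene, numbered 4, 1, 9 and 10 in the Nrf2-/- ethanol libraries and 20, 17, 0 and 5 in the Nrf2-/- controls. In the liver KO libraries they numbered 0, 6, 22 and 4, against 11, 9, 20 and 17 in the flox libraries. Which exons the alleles lack is not given, so these few reads do not check the labels.

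The clusters' own positions and sequences were not analysed here, since the genome build behind the tables is not given. For orientation, the 250 bases before the start of 2 host genes are shown, read from the RefSeq promoter table (GRCm38.p6). They were chosen because pi-Cbl.1 was the most abundant cluster named by a gene, and pi-Zfp382.1 was the one among the abundant ones whose shares did not overlap between ethanol and control in Nrf2-/- mice. Cbl encodes a ubiquitin ligase of receptor signalling and Zfp382 a zinc finger repressor. Capitals mark matches to AACNGNC, a core of the motif bound by MYB proteins, searched on both strands (the reverse strand reads GNCNGTT).
Cbl, chr9:44234047-44234296, minus strand, 5′ to 3′: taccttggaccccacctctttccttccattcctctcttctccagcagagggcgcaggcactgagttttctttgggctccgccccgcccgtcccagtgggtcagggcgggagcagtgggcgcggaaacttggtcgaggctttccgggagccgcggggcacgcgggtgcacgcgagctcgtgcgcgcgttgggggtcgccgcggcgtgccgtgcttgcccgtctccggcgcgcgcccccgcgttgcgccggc
Zfp382, chr7:30121682-30121931, plus strand, 5′ to 3′: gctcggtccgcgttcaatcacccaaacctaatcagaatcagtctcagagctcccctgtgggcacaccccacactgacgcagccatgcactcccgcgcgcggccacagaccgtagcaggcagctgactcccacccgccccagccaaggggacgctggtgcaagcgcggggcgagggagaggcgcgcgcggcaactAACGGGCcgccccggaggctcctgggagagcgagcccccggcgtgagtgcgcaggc
The Cbl stretch held 0 matches and the Zfp382 stretch 1, and 27.7% of the 32851 such stretches in RefSeq held at least 1. Whether the cluster transcripts start at these positions is not given, and a match is a description of letters.

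The piRNA counts were spread unevenly over the clusters. The cluster 18-qE1-36451.1 led 25 of the 28 libraries, 17-qA3.3-27363.1 led 2 (Nrf2-/- ethanol 3 and 4) and 9-qC-31469.1 led 1 (Nrf2-/- ethanol 2). A share of 50% of the class was reached with 16 to 18 rows, and 90% with 67 to 73 rows. The effective number of clusters, the inverse of the summed squared shares, lay between 43.2 and 46.4 rows. With 1 row per stem it lay between 24.0 and 26.0 loci, and 9 loci reached 50% in each library. The leading locus then held 8.00% to 9.97%, against 5.41% to 6.74% for the leading cluster over all rows. The 10 leading rows held 37.9% to 38.8% of the class in each of the 28 libraries.

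**Figure D1:**
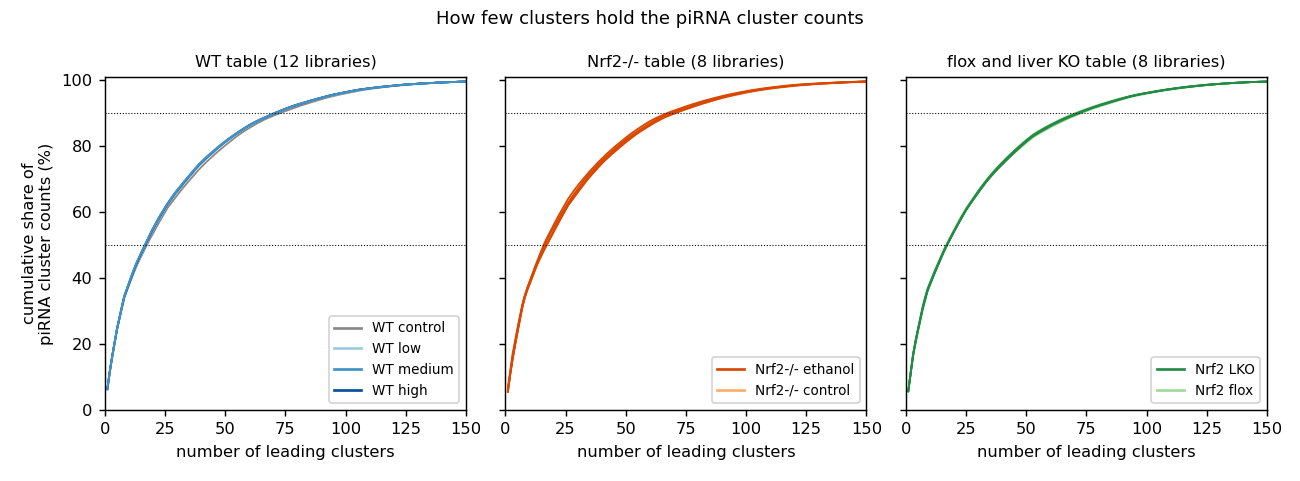
Cumulative share of the piRNA cluster counts (vertical axis, percent) over the leading clusters of each library (horizontal axis, number of clusters in order of share), 1 line per library in the colour of its group; dotted lines mark 50% and 90%. The lines of 28 libraries nearly coincide, crossing 50% at 16 to 18 clusters and 90% at 67 to 73.

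The leading cluster, 18-qE1-36451.1, held 6.18%, 6.18%, 6.34% and 6.26% of the class in the WT controls, 6.48%, 6.20%, 6.21% and 6.15% at the low dose, 6.46% and 6.42% at the medium dose and 6.57% and 6.31% at the high dose. The WT groups overlapped except that both medium-dose libraries were above the 4 controls. It held 5.46%, 5.39%, 5.26% and 5.34% in the Nrf2-/- ethanol libraries and 5.65%, 5.64%, 5.65% and 5.45% in the Nrf2-/- controls, where ethanol 1 was just above control 4 and the other ethanol libraries were below each control. Liver KO libraries had 5.55%, 5.58%, 5.75% and 5.74%, and flox libraries 5.85%, 5.79%, 5.71% and 5.85%, so that the groups overlapped.

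The second cluster, 9-qC-31469.1, ran from 5.22% to 5.38% over the WT libraries, from 5.01% to 5.44% over the Nrf2-/- libraries and from 5.41% to 5.76% in the last table. Its partner at the same band, 9-qC-10667.1, ranked 9th in each table, at 2.02% to 2.10%, 2.15% to 2.49% and 2.32% to 2.73% in the same order. The third, 17-qA3.3-27363.1, averaged 4.62% over the WT libraries, 5.11% over the Nrf2-/- libraries and 5.40% over the flox and liver KO libraries. It was followed by 9-qA5.3-24188.1 with 4.19%, 4.15% and 4.00%, and by 6-qF3-28913.1 with 4.12%, 3.88% and 3.56%, in the order of these tables.

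The near-identical rows of 1 locus, 2-qE1-35981.2 and 2-qE1-35981.1, came next, and 2-qE1-35981.2 averaged 3.32%, 3.74% and 3.39% in the 3 tables. Cluster 4-qC5-17839.1 averaged 3.13%, 2.91% and 2.85%. The tenth place went to 12-qE-23911.2 in the WT table (mean 1.98%) and to 17-qE1.1-7037.1 in the other tables (means 1.89% and 1.84%). Each of these leading clusters is named by a band, and none by a gene.

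**Figure D2:**
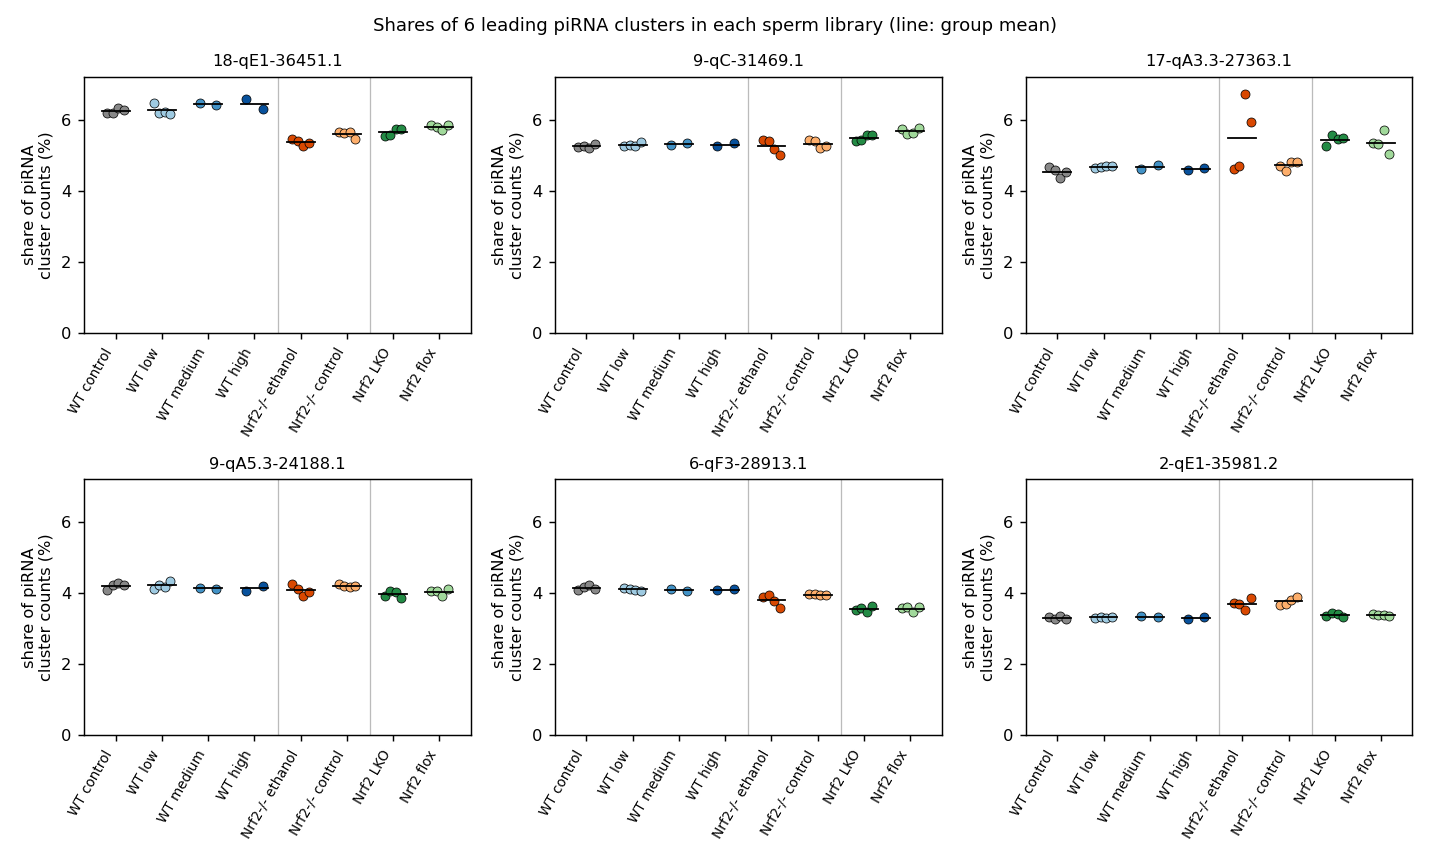
Share of the piRNA cluster counts (percent) of the leading row of each of the 6 loci most abundant in the WT table, 1 point per library, with the group mean as a line; vertical lines separate the 3 tables. The points of a group lie close together except for 17-qA3.3-27363.1, which reached 6.74% and 5.94% in Nrf2-/- ethanol 3 and 4 against at most 4.81% in the Nrf2-/- controls.

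Clusters named by a gene held 0.761% to 0.968% of the class. The most abundant was pi-Cbl.1, at 0.270% to 0.342% in the WT libraries, 0.193% to 0.228% in the Nrf2-/- libraries and 0.172% to 0.219% in the flox and liver KO libraries, so that its WT range lay above those of both other tables. It ranked 69th, 85th and 92nd in those tables. Next came pi-Zfp382.1 with means of 0.177%, 0.174% and 0.179%. The cluster pi-Eif2c2.1, under an older symbol of Ago2, an Argonaute protein of the miRNA pathway, averaged 0.0841%, 0.0859% and 0.0726%. The cluster pi-Eif4ebp2.1, in the gene of a repressor of cap-dependent translation, averaged 0.0689%, 0.0716% and 0.0699%.

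Within a table the shares of the leading clusters hardly varied. Among the 30 leading rows the coefficient of variation (CV) of the share over the libraries of a table had a median of 2.11% for WT, 3.62% for Nrf2-/- and 2.92% for flox and liver KO libraries. It was under 5% for 30, 22 and 27 of the 30 rows. The steadiest rows were 9-qC-31469.1, 2-qE1-35981.1 and 2-qE1-35981.2 in the WT table (CV 0.907%, 0.912% and 0.914%), the 3 rows of 15-qD1-17920 in the Nrf2-/- table (1.40% to 1.43%), and 2-qE1-35981.1, 2-qE1-35981.2 and 5-qG3-23659.1 in the last table (1.01%, 1.01% and 1.30%). The most variable were 7-qD1-9417.1 in the WT table (4.18%), followed by 17-qA3.3-26735.2 and 17-qA3.3-26735.3 (3.88% each), and the 3 rows of 17-qA3.3-26735 in the Nrf2-/- table (17.2% to 17.3%) and in the last table (5.97% to 6.05%). No cluster was at 0 in a library whose depth and the shares elsewhere would give it 50 or more reads.

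The pair at band 17 A3.3 carried the widest swings among the leading clusters. The share of 17-qA3.3-27363.1 was 4.62%, 4.69%, 6.74% and 5.94% in the Nrf2-/- ethanol libraries, against 4.70%, 4.55%, 4.80% and 4.81% in the Nrf2-/- controls. Ethanol libraries 3 and 4 were above, and ethanol libraries 1 and 2 within, the range of the controls. Its partner 17-qA3.3-26735.1 followed it, with 1.41%, 1.40%, 2.06% and 1.84% in the ethanol libraries and 1.40%, 1.34%, 1.40% and 1.44% in the controls. With counts scaled by the class total, the log2 ratio of ethanol over control was 0.22 (SE 0.11) for 17-qA3.3-27363.1 and 0.26 (SE 0.12) for 17-qA3.3-26735.1, and neither passed the quasi-likelihood test of edgeR (adjusted p = 0.93 for both). The higher values were those of 2 of the 4 ethanol libraries.

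Among the flox and liver KO libraries, 17-qA3.3-27363.1 was at 5.26%, 5.56%, 5.47% and 5.48% in the liver KO libraries and 5.34%, 5.32%, 5.71% and 5.03% in the flox libraries. There the partner 17-qA3.3-26735.1 was at 1.69%, 1.69%, 1.68% and 1.78% in the liver KO libraries and 1.62%, 1.61%, 1.86% and 1.53% in the flox libraries. Flox 3 was the highest and flox 4 the lowest of the 8 for both clusters. The WT libraries were lower and closer together, at 4.36% to 4.72% for 17-qA3.3-27363.1 and 1.13% to 1.32% for 17-qA3.3-26735.1.

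With group means removed, the log2 shares of the 2 clusters had Pearson's r = 0.955 over the 28 libraries (permutation p = 5e-05, adjusted over 6 pairs 0.0003) and Spearman's rho = 0.817 (permutation p = 0.00017, adjusted 0.00051). Without the 2 libraries farthest from the median, Nrf2-/- ethanol 2 and 3, r was 0.913. Within the tables r was 0.851 (WT), 0.996 (Nrf2-/-) and 0.863 (flox and liver KO). The count of 17-qA3.3-26735.1 relative to 17-qA3.3-27363.1 was 0.305, 0.298, 0.306 and 0.309 in the ethanol libraries and 0.297, 0.294, 0.291 and 0.300 in the Nrf2-/- controls. That ratio thus had a CV of 2.06% in a table where the share of the partner had one of 17.2%. For the pairs at 9 C and 6 F3 the same ratio had a CV of 8.39% and 5.14% in the Nrf2-/- table. In the WT table the order was the other way, with a CV of 3.16% for the 17-qA3.3 ratio, 1.57% for that at 9 C and 1.88% for that at 6 F3. In the flox and liver KO table the CVs were 3.28% (17-qA3.3), 6.66% (9 C) and 3.42% (6 F3). Shares within 1 library are not independent of each other, since they sum to 100%, and the libraries differ in depth. Once group means are removed, the 2 medium-dose libraries mirror each other, as do the 2 high-dose ones. The 28 values are therefore not independent, here and in the pairs below.

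**Figure D3:**
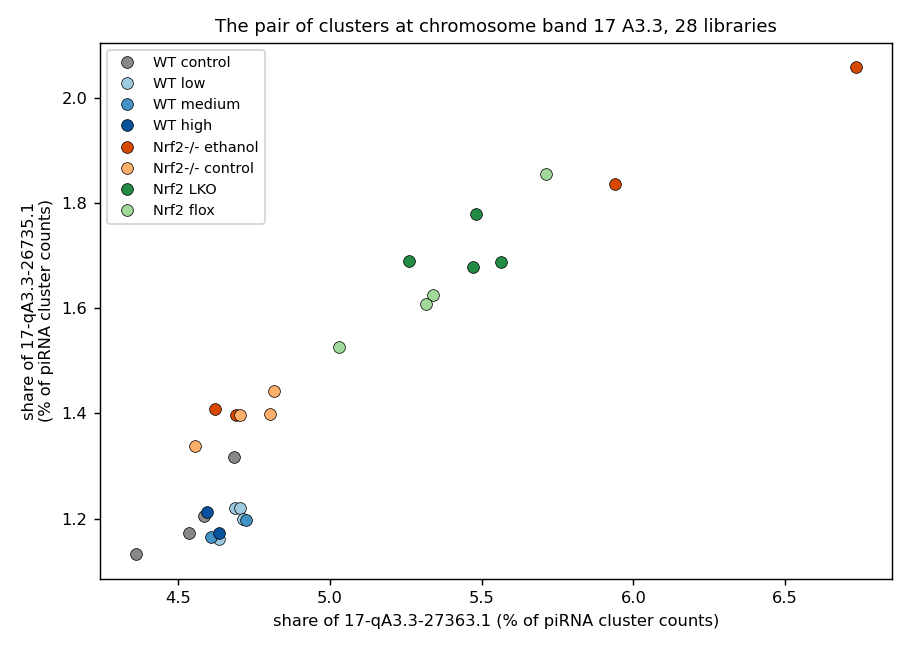
Share of 17-qA3.3-26735.1 (vertical axis, percent of piRNA cluster counts) against the share of its head-to-head partner 17-qA3.3-27363.1 (horizontal axis, percent) in 28 libraries, coloured by group. Both shares are highest in Nrf2-/- ethanol 3, at 6.74% and 2.06%, while Nrf2-/- ethanol 1 and 2 lie among the Nrf2-/- controls.

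Other leading clusters at 1 band did not all behave like that pair. Of the 19 loci among the 30 leading rows of every table, 6 pairs shared a band, and in the 165 pairs from different bands r had a median of 0.02 and ran from -0.898 to 0.874. At 9 C, 9-qC-31469.1 and 9-qC-10667.1 moved in opposite directions, with r = -0.693 (permutation p = 0.00327, adjusted 0.00654; rho = -0.656, permutation p = 0.00578, adjusted 0.0116; -0.596 without flox 1 and Nrf2-/- ethanol 4), and within the tables r was -0.381, -0.758 and -0.678. The 6-qF3 pair had r = -0.249 (permutation p = 0.49; rho = -0.0898, permutation p = 0.722; -0.254 without the 2 farthest libraries). At 7 D1, 7-qD1-19431.2 and 7-qD1-9417.1 moved together with r = 0.783 (permutation p = 0.00015, adjusted 0.00045; rho = 0.794, permutation p = 0.00013, adjusted 0.00051; 0.726 without flox 3 and WT control 1). For 7-qD1-16444.1 with 7-qD1-9417.1 r was 0.666 (permutation p = 0.00949, adjusted 0.0142; rho = 0.515, permutation p = 0.0239, adjusted 0.0359), but 0.420 without WT control 1 and Nrf2-/- ethanol 4, and -0.224 within the flox and liver KO table. The last pair, 7-qD1-16444.1 with 7-qD1-19431.2, had r = 0.363 (permutation p = 0.161, adjusted 0.193; rho = 0.302, permutation p = 0.217, adjusted 0.26; 0.144 without the 2 farthest). The clusters whose shares were most like those of the leader 18-qE1-36451.1 over the 28 libraries were 4-qC5-17839.1 (r = 0.558), 7-qD1-19431.1 (0.491) and 7-qD1-19431.2 (0.477), given as a description.

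A few less abundant clusters stood out in single libraries; they were chosen after their values were seen. Of the 128 rows with a mean of at least 0.05% of the class in the WT table, 6 rows of 3 loci exceeded the next highest WT library by over 1.25 times in 1 library. Represented by 1 row each, 13-qA5-703.1, 13-qA5-464.2 and 17-qA3.3-352.2, all of them had their highest share in WT control 1, in Nrf2-/- ethanol 2 and in liver KO 1. For 17-qA3.3-352.2 these were 0.151%, 0.170% and 0.208%, where the next highest libraries of the tables had 0.0888%, 0.120% and 0.179%. For 13-qA5-464.2 they were 0.278%, 0.295% and 0.343%, and the next highest were 0.166%, 0.215% and 0.303%. For 13-qA5-703.1 they were 0.480%, 0.467% and 0.473%, against next highest values of 0.329%, 0.369% and 0.411%. The cluster 17-qA3.3-352.2 shares a band with the head-to-head pair, and in Nrf2-/- ethanol 3 and 4 it held 0.114% and 0.115%, above 3 of the 4 Nrf2-/- controls (0.0978% to 0.0988%) and below control 2 (0.117%). Structural RNA took 75.8%, 26.9% and 44.3% of the counts of these 3 libraries, which was the highest of its table in WT control 1 and in liver KO 1 but not in Nrf2-/- ethanol 2. Its part in these shares was not tested.

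The cluster 7-qD2-40.1 had 45, 25, 47 and 96 counts in the Nrf2-/- ethanol libraries and 268, 414, 12 and 19 in the Nrf2-/- controls, or 0.00774%, 0.00609%, 0.00577% and 0.0201% against 0.0514%, 0.0754%, 0.00124% and 0.00115% of the class. The high controls are the 2 with epididymis epithelium sums of 1998 and 1729 CPM. In the WT table its highest share, 0.00657%, was in high dose 1, which had the highest epididymis sum there (2080 CPM). The share was 0.00343%, 0.00378%, 0.00844% and 0.00316% in the liver KO libraries and 0.00761%, 0.00416%, 0.00970% and 0.0103% in the flox libraries, where epididymis sums were 170 to 562 CPM in liver KO and 709 to 856 CPM in flox libraries. Nrf2-/- controls 1 and 2 also held fewer piRNA counts, 10.8% and 9.23% of all counts against 24.7% and 25.7% in controls 3 and 4. The part of epididymal RNA in these values was not tested.

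The order of the clusters was nearly the same in the 3 control groups. Spearman's rho over clusters was 0.985 for Nrf2-/- controls against WT controls (300 clusters), 0.986 for Nrf2 flox against WT controls (312) and 0.988 for Nrf2-/- controls against Nrf2 flox (296). These are correlations across clusters, which are not independent replicates. Of the 10 leading rows, 9, 10 and 9 were shared, and of the 20 leading rows 17, 17 and 18. Within a table the lowest rho between any 2 libraries was 0.983 (WT), 0.989 (Nrf2-/-) and 0.994 (flox and liver KO), over clusters of at least 0.1% share. Genotype and table, with anything else that differed between the tables, cannot be told apart in these differences.

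Among clusters holding at least 0.5% in 1 of the 2 groups, the largest difference was in 10-qB5.1-5404.2, at 0.367% ± 0.00813 in Nrf2 flox and 0.517% ± 0.0168 in WT controls (SD, n = 4 each; log2 ratio -0.49). The opposite difference was in 17-qA3.3-26735.1, at 1.65% ± 0.141 in Nrf2 flox and 1.21% ± 0.0798 in WT controls (log2 ratio 0.45), and its near-identical rows 17-qA3.3-26735.2 and 17-qA3.3-26735.3 had the same ratio. Next was 9-qC-10667.1, at 2.52% ± 0.145 in Nrf2 flox and 2.06% ± 0.0345 in WT controls (0.29). Nrf2-/- controls were below WT controls in 14-qA3-3095.1 (0.537% ± 0.00921 against 0.648% ± 0.00825, log2 ratio -0.27), 7-qD1-9417.1 (1.31% ± 0.0416 against 1.58% ± 0.120, -0.27) and 1-qD-4525.1 (0.611% ± 0.0119 against 0.733% ± 0.0264, -0.26). They were above WT controls in the 3 rows of 17-qA3.3-26735, with 1.39% ± 0.0428 against 1.21% ± 0.0798 for 17-qA3.3-26735.1 (0.21). The same rows gave the largest differences of Nrf2-/- controls from Nrf2 flox, with 17-qA3.3-26735.1 at 1.39% ± 0.0428 against 1.65% ± 0.141 (-0.25). Nrf2-/- controls were above Nrf2 flox in 7-qD1-19431.1 (1.30% ± 0.0432 against 1.11% ± 0.0326, 0.23) and 15-qE1-8387.2 (0.526% ± 0.0125 against 0.451% ± 0.0178, 0.22). In each of these the ranges of the 2 groups did not overlap, but these clusters were chosen for large differences, so this adds no support. Over all such rows the median absolute log2 ratio was 0.08 for Nrf2-/- controls against WT (56 rows), 0.14 for flox against WT (56 rows) and 0.12 for Nrf2-/- controls against flox (55 rows).

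**Figure D4:**
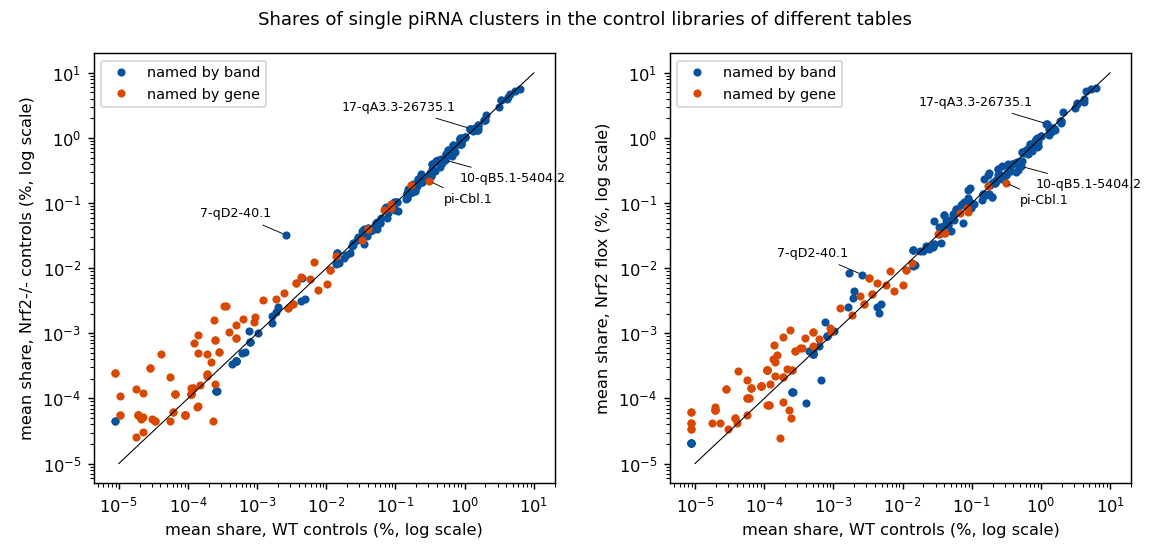
Mean share of each cluster (percent, log axes) in Nrf2-/- controls and in Nrf2 flox libraries against WT controls, 4 libraries each, with the line of equal share. Points hug the line among abundant clusters, which are mostly named by a band, and scatter among rare ones, which are mostly named by a gene.

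No piRNA cluster passed the test in any comparison. The counts were fitted by edgeR together with all other features except miRNAs, scaled by the trimmed mean of M values (TMM), and 210 clusters in the WT table and 188 in each other comparison passed the filter on low counts; the members that did not pass were not tested. At an adjusted p of 0.05, 0 of 210 clusters were called at the low dose, where 0.0558% of all 17937 features were called. At the medium dose 0 of 210 were called (0% of all features), at the high dose 0 of 210 (0%), and for the mean of the doses against control 0 of 210 (0.00558%). For ethanol in Nrf2-/- mice 0 of 188 were called (0% of 9658 features), for liver KO against flox 0 of 188 (0.0508% of 9836), and for the difference between the Nrf2-/- and WT responses to alcohol 0 of 188 (0% of 9523). None of the clusters had an unadjusted p under 0.05 in any of these 7 TMM-scaled fits. Of all features 6.94% did at the low dose, 4.3% at the medium dose, 2.73% at the high dose, 4.04% for the mean of the doses, 4.68% for ethanol in Nrf2-/- mice, 12.3% for liver KO and 4.29% for the difference between responses. DESeq2 called 0 clusters in each comparison as well.

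The fold changes of the clusters lay close together within a comparison. At the low dose 167 clusters were higher and 43 lower, with a median log2 fold change of 0.06 against 0.00 over all features tested. At the medium dose the median was 0.12 (0.00 over all features), and at the high dose -0.17 (0.05), where 8 were higher and 202 lower. In Nrf2-/- mice ethanol gave a median of -0.38 (-0.27 over all features), with 2 clusters higher and 186 lower. Liver KO against flox gave 0.24 (0.01), with 179 higher and 9 lower. Beside this, summed epididymis epithelium markers were at 170 to 562 CPM in liver KO and 709 to 856 CPM in flox libraries, with 6 to 9 and 8 to 10 of the 12 above 0, and Sertoli and Leydig cell markers at 12.5 to 36.5 CPM in liver KO and 33.6 to 85.1 CPM in flox libraries. Beside the low-dose values, red blood cell markers were at 34.7 to 63.8 CPM at the low dose and 1.89 to 13.5 CPM in WT controls, with 5 to 6 and 3 to 6 of the 6 above 0. The part of these markers in the shifts was not tested. Single libraries turned each of these medians round except that of liver KO. The median became -0.06 at the low dose without WT control 1 or without low dose 2, and -0.01 without WT control 3. It became -0.02 at the medium dose without medium dose 2, 0.04 at the high dose without high dose 1, and 0.06 for ethanol in Nrf2-/- mice without control 4, while for liver KO it ran from 0.11 without liver KO 4 to 0.38 without flox 2. These common shifts also depend on the scaling. With total counts as library size the median became 0.03 at the high dose and -0.08 for liver KO, and scaled by the class total each median lay between -0.02 and 0.00.

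**Figure D5:**
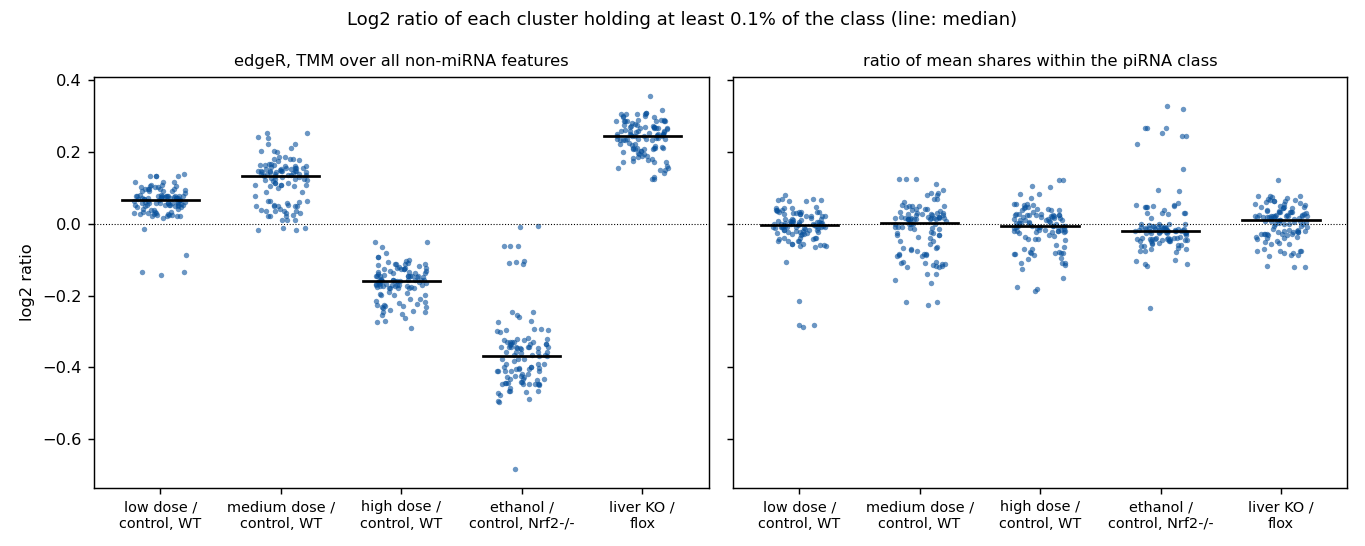
Log2 ratio (alcohol over control, or liver KO over flox) of each cluster with at least 0.1% of the class, 1 point per cluster, with the median as a line, in 5 comparisons. At the left, from edgeR with TMM, the clusters of a comparison lie together, with medians of 0.07, 0.13, -0.16, -0.37 and 0.24; at the right, as ratios of mean shares within the class, the medians are 0.00, 0.00, -0.01, -0.02 and 0.01.

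Within the class, single clusters differed little. Scaled by the class total, 120 of 130 clusters with a mean of at least 1000 counts had a log2 fold change within 0.1 at the low dose, 99 of 130 at the medium dose and 107 of 130 at the high dose. The numbers were 89 of 102 for ethanol in Nrf2-/- mice and 103 of 107 for liver KO against flox. On this scale too, no cluster passed, though some unadjusted p of the edgeR test were under 0.05. For the difference between responses the lowest were 0.0011 (18-qE1-36451.1) and 0.0018 (pi-Zfp382.1). The lowest at the low, medium and high doses were 0.037 (17-qA3.3-27363.1), 0.0072 (4-qB3-3994.3) and 0.055 (4-qB3-3994.3). They were 0.0098 for ethanol in Nrf2-/- mice (18-qE1-36451.1) and 0.016 for liver KO (9-qC-31469.1). In edgeR, the lowest unadjusted p values belonged to 17-qA3.3-27363.1 at the low dose (log2 0.05, SE 0.02, adjusted p = 0.99), to 4-qB3-3994.3 and its twin row 4-qB3-3994.4 at the medium dose (0.37, SE 0.12, adjusted p = 1.0) and at the high dose (0.25, SE 0.12, adjusted p = 1.0), to 18-qE1-36451.1 for ethanol in Nrf2-/- mice (-0.06, SE 0.02, adjusted p = 0.93), and to 9-qC-31469.1 for liver KO (-0.05, SE 0.02, adjusted p = 0.48). For the difference between responses in edgeR they belonged to 18-qE1-36451.1 (-0.09, SE 0.02, adjusted p = 0.99) and pi-Zfp382.1 (-0.34, SE 0.09, adjusted p = 0.99).

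For alcohol in WT mice, the lowest unadjusted p of the TMM-scaled fits at the low dose belonged to low rows: pi-Tmem194.2 (log2 -0.92, SE 0.49), pi-Tmem194.3 (-0.42, SE 0.29), pi-Hinfp.1 (0.42, SE 0.30), 7-qD2-40.1 (0.43, SE 0.36) and pi-Elk4.1 (0.41, SE 0.36), with adjusted p of 0.76 to 0.94. These are rows of few reads, whose mean shares at the low dose were at most 0.00324% of the class. At the medium dose they were 4-qB3-3994.3, 4-qB3-3994.4 (0.49, SE 0.28 each) and 3-qA2-617.1 (0.34, SE 0.27). The share of 4-qB3-3994.3 was 0.0778% ± 0.00217 at the medium dose (n = 2) and 0.0601% ± 0.00860 in controls (n = 4). At the high dose they were 1-qD-2017.1 (-0.70, SE 0.34), 13-qA5-967.1 (-0.61, SE 0.30) and pi-1700006A11Rik.1 (-0.48, SE 0.28). Adjusted p were at least 0.97 at both doses.

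At the low dose the shares of 4 cluster rows were above and those of 6 below all 4 controls, of 210 tested. With counts divided by the same piRNA cluster total, 1.83% and 1.47% of all features were. For features of other classes this ratio is not a share of their own class, and it also moves with the piRNA cluster total. The higher rows were 13-qA5-208.3, 15-qD1-4001.1, 15-qD1-4001.2 and 15-qD3-14639.3, of which the last held 0.834% ± 0.00873 at the low dose and 0.819% ± 0.00656 in controls (n = 4 each). The lower rows were 10-qC1-1527.1 (0.605% ± 0.0158 against 0.630% ± 0.00770), 10-qC1-2617.1, 10-qC1-2617.2, 19-qC2-1361.2, 19-qC2-1361.3 and pi-Tmem194.3. The rows 15-qD1-4001.1 and 15-qD1-4001.2 had the same values, as had 19-qC2-1361.2 and 19-qC2-1361.3. Those of 10-qC1-2617.1 and 10-qC1-2617.2 were nearly the same, so these rows stand for fewer loci. Among clusters of at least 0.1%, the largest log2 ratio of mean shares, -0.29, was that of 13-qA5-464.1, at 0.140% ± 0.00755 at the low dose and 0.171% ± 0.0632 in controls (n = 4 each), where WT control 1 alone was at 0.266%.

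For ethanol in Nrf2-/- mice, no cluster was above and 2 were below all 4 controls in share, of 188 tested. By counts over the piRNA cluster total, 0.425% and 0.248% of all features were. The cluster pi-Zfp382.1 had 0.160%, 0.157%, 0.154% and 0.170% in the ethanol libraries and 0.174%, 0.173%, 0.199% and 0.209% in the controls (log2 ratio of mean shares -0.24, class-scaled adjusted p = 0.93). The other was 4-qD2.2-349.1 (0.0193% ± 0.00206 against 0.0236% ± 0.00173). On the TMM scale the lowest unadjusted p belonged to 10-qC1-117.1 (log2 -0.88, SE 0.51), pi-Eif4ebp2.2 (-0.64, SE 0.47), 7-qD2-40.1 (-1.03, SE 0.80), pi-Uhmk1.1 (-0.60, SE 0.47) and pi-Ppp1r12b.1 (0.51, SE 0.44), each with an adjusted p of 0.78. Their mean shares were at most 0.0323% of the class in either group.

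For liver KO against flox, 2 cluster rows were above and 3 below all 4 flox libraries in share, of 188 tested. By counts over the piRNA cluster total, 0.763% and 3.88% of all features were. The higher rows were of 1 locus: 7-qD2-11976.1, at 0.680% ± 0.0119 in liver KO and 0.645% ± 0.0172 in flox libraries, and 7-qD2-11976.2. For the third row of this locus, 7-qD2-11976.3, the groups overlapped. The second most abundant cluster, 9-qC-31469.1, was at 5.41%, 5.43%, 5.58% and 5.57% in liver KO and 5.74%, 5.61%, 5.63% and 5.76% in flox libraries, so its groups did not overlap, by a log2 ratio of -0.05. The other lower rows were pi-Hmbox1.1 and pi-Hmbox1.2, of 1 locus and with the same values, at 0.00346% ± 0.000205 in liver KO and 0.00395% ± 0.000170 in flox. On the TMM scale the lowest unadjusted p belonged to 7-qD2-40.1 (log2 -0.56, SE 0.30), 4-qD2.2-349.1 (0.43, SE 0.24), 5-qG2-2301.1 (0.41, SE 0.23), pi-Tmem194.3 (0.75, SE 0.42) and 1-qE3-706.1 (0.36, SE 0.20), with adjusted p of 0.46 to 0.48.

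No difference in the concentration of the class between groups passed the threshold, in tests limited by few libraries. In 18 exact two-sided permutation tests (3 measures in 6 comparisons), the lowest p was for the effective number of clusters, 44.9 ± 0.250 over the 8 alcohol-exposed WT libraries and 45.5 ± 0.501 over the 4 WT controls (SD, difference -0.561, exact permutation p = 0.0162, adjusted over the 18 tests 0.267). Without WT control 1 the difference was -0.328 (adjusted p = 0.411 by the same exact permutation tests). The 10 leading clusters held 38.4% ± 0.166 in the exposed and 38.2% ± 0.230 in the control WT libraries (exact permutation p = 0.099, adjusted 0.267). In Nrf2-/- mice the effective number was 45.1 ± 1.40 with ethanol and 45.6 ± 0.227 in controls (n = 4 each, exact permutation p = 0.6, adjusted 0.675), with the lowest value, 43.2, in ethanol 3, the library where the 17-qA3.3 pair was highest. In liver KO libraries it was 45.7 ± 0.524, against 45.1 ± 0.213 in flox libraries (n = 4 each, exact permutation p = 0.0857, adjusted 0.267). The leading cluster held 5.66% ± 0.103 in liver KO and 5.80% ± 0.0666 in flox libraries (n = 4 each, exact permutation p = 0.0857, adjusted 0.267). With 2 libraries against 4, at the medium and high doses, the exact test cannot go below 0.0667.

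Transcripts of the piRNA pathway were sparse. Of 31 pathway genes, the exons of 20 passed the filter on low counts in WT, of 8 in Nrf2-/- and of 11 in flox and liver KO libraries, and none was called in any comparison. Exon reads of Piwil1 (MIWI) numbered 19, 13, 19 and 16 with ethanol and 11, 10, 17 and 39 in controls in the Nrf2-/- table, and 15, 12, 44 and 22 in liver KO against 27, 37, 30 and 23 in flox libraries. Those of Piwil2 (MILI) numbered 62, 32, 72 and 35 with ethanol and 45, 48, 84 and 148 in Nrf2-/- controls, and 85, 94, 88 and 131 in liver KO against 73, 149, 112 and 104 in flox libraries. Exons of Piwil4 (MIWI2, the PIWI protein of fetal germ cells) had 0 to 5 reads in each library. The groups overlapped for all 3 genes in both tables. In the WT table Piwil1 and Piwil2 exon reads overlapped between low dose and controls. Piwil4 had 1, 2, 3 and 1 reads at the low dose and 0 in each WT control, at the floor of the counts. For exons the median log2 fold change of the list was 0.06 at the low dose, 0.22 at the medium dose, -0.28 at the high dose, -0.55 for ethanol in Nrf2-/- mice and 0.11 for liver KO, beside 0.00, 0.00, 0.05, -0.27 and 0.01 over all features tested. In edgeR the lowest unadjusted p was that of Kif17, a kinesin motor, in liver KO against flox (log2 1.26, SE 0.43, adjusted p = 0.23).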

How the data were processed

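The authors deposited raw counts of reads per annotated feature in 3 tables, whole numbers whose totals differed between libraries. Per the labels' protocols, RNA was extracted with Trizol and libraries were made with the Qiaseq small RNA kit. The aligner, counting tool, genome build and treatment of multiply mapped or overlapping reads are not given in the sources used here. Groups and replicate numbers came from the labels, and all 28 count columns were matched to a sample.

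Shares are cluster counts over the piRNA cluster counts of the library. Counts, summed per feature name within a class, were tested without miRNAs in R 4.3.3 with edgeR 4.0.16 (filterByExpr, TMM, robust quasi-likelihood F test, two-sided, Benjamini-Hochberg at 0.05 over all features), each table in its own fit and both alcohol sets in 1 fit for the difference between responses. The fit was also run on simulated data, and how many changes it recovered is not reported here. The SE beside an edgeR log2 fold change is its absolute value over the square root of F, so it restates the test. Python 3.11.15, numpy 2.4.6, pandas 2.3.3 and scipy 1.17.1 gave shares, exact permutation tests and, for correlations, 100000 permutations.

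Clusters and lists were chosen with earlier results of these data known. Named were the 10 leading per table, the lowest unadjusted p per comparison, the 5 largest differences between tables, and the 3 most and least variable of 30. Replicates of 1 group differed beyond sampling noise in each pair, so none was merged. Alternatives were DESeq2 1.42.0, other library sizes, no filter, miRNAs included, a replicate block, only the groups compared, a threshold of 0.1, thinning, and each library left out. Taking 1 row per name stem, and class totals with a library left out, were added after the data were seen.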

Additional observations from a re-analysis of the deposited data

Results flagged for a closer look

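In groups of 4, the highest or lowest library was set against the other 3 by Dixon's criterion, for 132 combinations of a measure and a group; chance flags about 1 in 20 of them. The criterion marked 13. The clusters 13-qA5-703.1, 13-qA5-464.2 and 17-qA3.3-352.2 were in the set because 1 WT library stood far above the others. The rate expected by chance does not hold for them. In Nrf2-/- control 4 the leading cluster, 18-qE1-36451.1, held 5.45% against 5.64% to 5.65% in the other controls; this one value counts under 2 measures, since it is also the share of the leading cluster. In Nrf2-/- ethanol 4, 9-qC-10667.1 held 2.49%, and 7-qD2-40.1 held 0.0201%. In liver KO 4, 17-qA3.3-26735.1 held 1.78%, and in liver KO 3, 7-qD2-40.1 held 0.00844%. In WT control 1, the library with 75.8% structural RNA, 13-qA5-703.1 held 0.480%, 13-qA5-464.2 held 0.278% and 17-qA3.3-352.2 held 0.151%. The last 2 clusters also stood apart in Nrf2-/- ethanol 2 (0.295% and 0.170%) and in Nrf2-/- control 2 (0.212% and 0.117%).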

How the results depend on the processing

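The 188 alternatives computed are summed over the comparisons and include the main fits read at a threshold of 0.1. The count of piRNA clusters past an adjusted p of 0.05 was 0 in each refit. At a threshold of 0.1 it was 0 as well, except for 7-qD2-40.1, lower in liver KO than in flox libraries with class totals as library size and without liver KO 3 (log2 -1.20, SE 0.38, edgeR adjusted p = 0.0837). A fit with only the groups compared was not run for the mean of the 3 doses, since every WT group is in it. Same-numbered libraries did not deviate together in every pair. The r of their deviations ran from -0.491 (Nrf2-/- control 4 and ethanol 4) to 0.436 (low dose 2 and high dose 2). Whether the numbers mark shared batches is not given, and the libraries were treated as unpaired. With a replicate block 0 clusters were called in each comparison, while the median log2 change of ethanol in Nrf2-/- mice moved to -0.10. Without single libraries that median ran from -0.74 to 0.06. The 24 changes of the clusters with the lowest unadjusted p in each comparison kept their TMM direction in 537 of 537 refits. They were chosen for low p in these same libraries, so that count says little about how firm they are. Changes of the 10 leading clusters of each table turned round in 128 of 810 refits that were not scaled to the class. Rank correlations between control groups ran from 0.980 to 0.992. Adjusted p of the concentration measures stayed between 0.164 and 1 under 216 alternatives, where the small groups allow little else. In these alternatives 9 differences turned round. For ethanol in Nrf2-/- mice the share of the 10 leading clusters (main difference -0.0176 percentage points) became 0.175 without the most abundant cluster and 0.255 with 1 row per stem, and ran from -0.141 to 0.134 with each library left out (0.0113 without control 3, 0.0298 without control 4, 0.0446 without ethanol 1). There the effective number (main difference -0.513) ran from -0.959 to 0.0941, with 0.0941 without ethanol 3, and at the low dose the share of the leading cluster (main difference 0.0196) ran from -0.0538 without low dose 1 to 0.0568. The cause was not tested. Depth limits the shares of rows with few counts, and the 2 libraries at the medium and high doses limit every test there.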
